A study of Homo sapiens with 4 samples.

Results

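Potassium channel genes were examined in SH-SY5Y cells, a human neuroblastoma line of sympathetic lineage. The members were all probe sets whose single annotated gene symbol begins with KCN, goes on with 1 to 3 letters and ends in a number. This rule found 85 genes, measured by 168 of the 54613 probe sets tested, among 19775 named genes in all. The knockdown group (2 arrays) received small interfering RNA against TSPAN8, which encodes a membrane protein of the tetraspanin family, through a self-delivering system. The transfection control group (2 arrays) was incubated for 72 h as well; the labels call it a control without naming the RNA it was given. Both groups grew in serum-containing medium, and 100 ng of total RNA per array was amplified and labelled with biotin. The labels do not state whether both samples of a group were grown separately, and p-values then reflect only how far these samples lay apart, possibly for technical reasons.

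Potassium channels let potassium leave the cell along its gradient and so set the resting membrane potential and end action potentials. Voltage-gated pore subunits open on depolarization, inward rectifiers and tandem-pore channels carry resting currents, calcium- and sodium-activated channels follow the ion load of the cell, and auxiliary subunits change the gating or trafficking of the pore. Neuroblastoma cells are known for ERG currents, carried by KCNH2, and for M-type currents, carried by KCNQ subunits.

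The deposited values are log2 signals, 1 per probe set and array, so a difference of 1 is a doubling of signal. Probe sets bind with different strength, and for this reason the signals of different genes are not compared as amounts of transcript. No detection calls were used here. A low reference was taken from 107 probe sets of olfactory receptors, which are made for the sense of smell. Their 95th percentile lay at 6.50 and 6.57 on the control arrays. A gene was counted as above this level where at least 1 of its probe sets exceeded it on both control arrays, and 4 of 82 olfactory receptor genes did so themselves. The count describes signal and is not a detection call.

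The labels were checked on TSPAN8 and on marker genes. TSPAN8 read 7.52 and 7.62 on the control arrays and 6.25 and 6.35 on the knockdown arrays, a difference of -1.27 ± 0.062 (SE; limma, adjusted p = 0.0026), and the groups did not overlap. Its knockdown values lay below the olfactory receptor level of those arrays (6.53 and 6.57), so the size of the drop may be understated. Of 6 measured noradrenergic neuroblast markers, 5 were above the olfactory receptor level, and TH, which encodes the first enzyme of noradrenaline synthesis, was not. In knockdown cells 5 of these 6 had a value below control, and their summed level (log2) was 14.35 and 14.38, against 14.47 and 14.44 in control cells. DBH encodes the enzyme that makes noradrenaline from dopamine. Its representative probe set, the one of highest mean over the 4 arrays, read 12.19 and 12.18 in control and 11.66 and 12.02 in knockdown cells, without overlap (-0.35 ± 0.10, SE; unadjusted p = 0.011, limma, adjusted p = 0.60). Of the 2 DBH probe sets, 1 was higher in knockdown cells. Blood and endothelial markers were above the olfactory receptor level in 1 of 4 cases and Schwann cell and melanocyte markers in 4 of 4. Of the latter, S100B (6.63 and 6.61), PMEL (6.66 and 6.68) and SOX10 (6.65 and 6.72) lay close to the level on the control arrays. MITF read 7.92 and 7.76 there. Mesenchymal markers were above the level for 8 of 10 genes, and 9 of 10 had a value above control. Of all 19775 named genes, 8787 had a value above control and 10988 a value below. The summed level of the mesenchymal markers (log2) was 14.77 and 14.54 on knockdown replicates 1 and 2 and 14.59 and 14.53 on the control arrays. The mesenchymal list moves with knockdown replicate 1, and the part of these lists in the results below was not tested. In such bulk RNA a change in the number of cells of a type and a change of RNA per cell cannot be told apart.

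In control cells, 33 of the 85 potassium channel genes (38.8%) were above the olfactory receptor level, against 63.5% of all named genes. By probe set the share was 29.2% of the 168, against 50.1% of all probe sets. The median control signal of the members was 6.30, and that of all probe sets was 6.58. The genes nearest the level were KCNS1 and KCNK5, inside it by 0.00036 and 0.0031, and KCNJ15 and KCNK4, outside it with margins of -0.0030 and -0.0094. In knockdown cells 34 genes were above the level, of which 32 were the same, with KCNS1 lost and KCNJ15 and KCNK4 gained, all 3 among these borderline genes. Only 10 member probe sets, of KCNH2, KCNJ2, KCNJ8, KCNK1, KCNMB4, KCNQ5 and KCNT2, lay above the 75th percentile of signals on both control arrays, and 1, of KCNK1, above the 90th and the 95th.

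**Figure D1:**
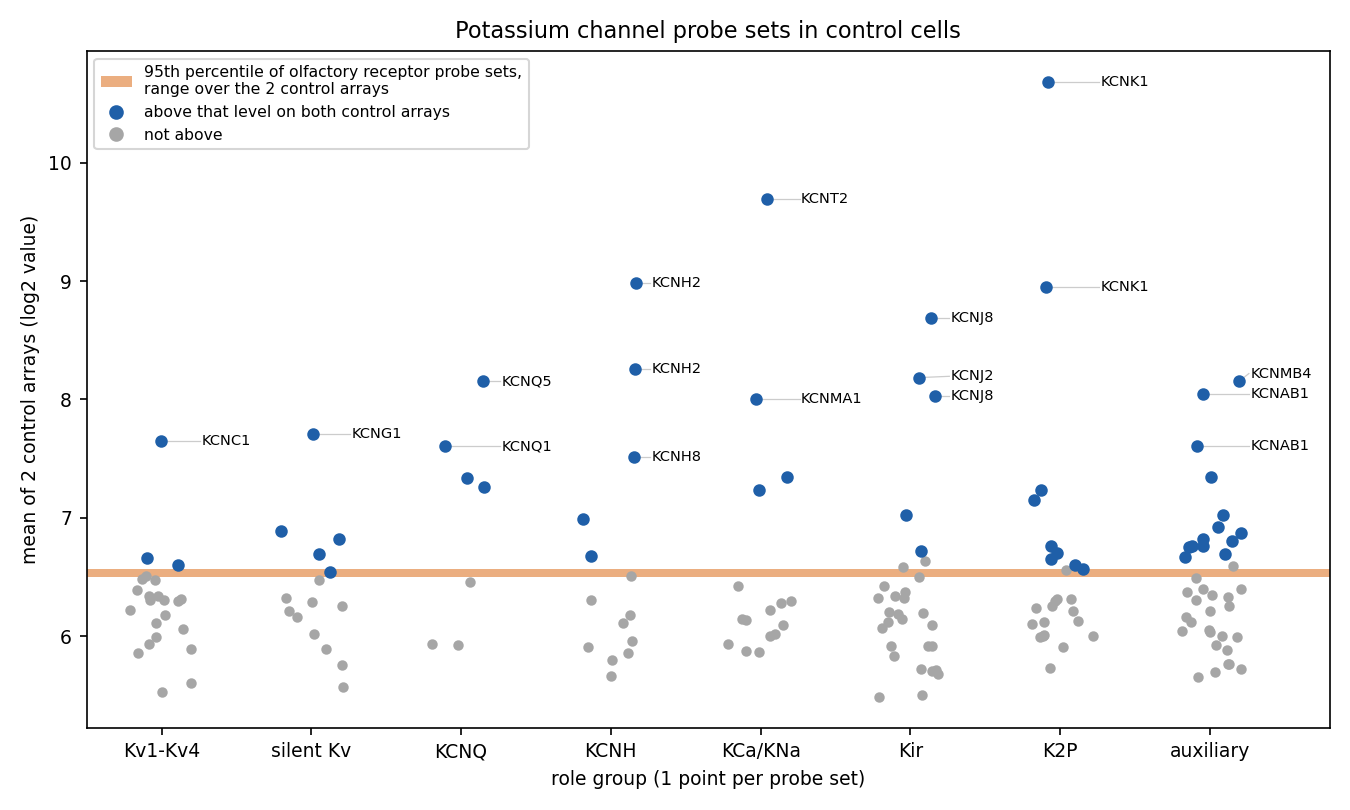
Mean log2 value of the 2 control arrays for each of the 168 probe sets, by role group; blue points are above the 95th percentile of olfactory receptor probe sets (orange band, 6.50 to 6.57) on both control arrays. Labels mark the brightest probe sets; 49 of the 168 are blue, and a KCNK1 probe set has the highest value, at 10.7.

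KCNH2, the pore subunit of the ERG current, was well above the reference with both of its probe sets. The first read 8.96 and 9.01 on the control arrays and 9.07 and 8.95 on the knockdown arrays. The groups overlapped, and the means differed by 0.026 ± 0.061 (SE; 95% confidence interval -0.12 to 0.17, limma, adjusted p = 0.96). The second read 8.26 and 8.25 in control and 8.28 and 8.27 in knockdown cells, a difference of 0.018 ± 0.051 (SE; limma, adjusted p = 0.97). Its knockdown arrays were both above the control arrays, by less than the standard error.

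Other KCNH genes, which encode relatives of the ether-a-go-go channel, were less uniform. KCNH1, KCNH3 and KCNH8 were also above the olfactory receptor level, whereas KCNH4, KCNH5, KCNH6 and KCNH7 ranged from 5.66 to 6.52 on the control arrays. KCNH3 read 6.98 and 7.01 in control and 7.09 and 7.14 in knockdown cells without overlap, a difference of 0.12 ± 0.053 (SE; limma, adjusted p = 0.64). KCNH8 overlapped, at -0.014 ± 0.061 (SE). KCNH7, the neuronal ERG relative, had probe sets of opposite sign, and its representative differed by -0.053 ± 0.063 (SE). One of 3 probe sets of KCNH5 had an unadjusted p under 0.05, at a difference of 0.15, from values of 5.66 and 5.67 in control and 5.78 and 5.85 in knockdown cells. These signals lay at percentiles 4.06 and 4.16 of the control arrays, near the floor of the measurement.

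All 3 measured KCNQ genes were above the level. KCNQ5, an M-current subunit, read 8.17 and 8.13 in control and 8.01 and 8.09 in knockdown cells, lower without overlap by -0.11 ± 0.056 (SE; limma, adjusted p = 0.69), while its other probe set was below the level and of opposite sign. KCNQ3, the usual partner in the neuronal M-current, read 7.35 and 7.32 in control and 7.25 and 7.24 in knockdown cells (-0.094 ± 0.051, SE). The other KCNQ3 probe sets were below the level and differed by -0.075 and 0.031. KCNQ1, the pore of a slow cardiac and epithelial current, read 7.67 and 7.54 in control and 7.75 and 7.71 in knockdown cells (0.12 ± 0.062, SE; limma, adjusted p = 0.67). Its second probe set differed by -0.024. None of the 7 KCNQ probe sets had an unadjusted p under 0.05.

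Most pore subunits of the classical Kv families gave low signal. Of 14 genes, 3 were above the level, and the highest value of the 11 others on a control array was 6.54. KCNC1, a fast channel of rapidly firing neurons, was the clearest of them, at 7.63 and 7.66 in control and 7.52 and 7.63 in knockdown cells (-0.072 ± 0.057, SE). KCND1, a subunit of transient A-type channels, differed by 0.0064 ± 0.055 (SE), a value whose sign turned with median centring and with a second quantile normalization. KCNA3, best known from T lymphocytes, was below the level in control cells at 6.29 and 6.39 and read 6.63 and 6.44 in knockdown cells. That is a difference of 0.19 ± 0.075 (SE; limma, adjusted p = 0.63), from 0.093 to 0.29 with 1 array left out. KCNA4, another A-type subunit, read 6.17 and 6.18 in control and 5.99 and 6.12 in knockdown cells (-0.12 ± 0.061, SE).

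Silent Kv subunits form no pore of their own and modify channels of the KCNB family when they join them. Of 10 genes, KCNG1, KCNG3, KCNS1 and KCNS3 were above the level. KCNG1 was tight within each group, at 7.70 and 7.71 in control and 7.67 and 7.66 in knockdown cells, and differed by -0.042 ± 0.051 (SE), with its other probe set at 0.033. KCNG3 read 6.77 and 6.87 in control and 7.07 and 6.79 in knockdown cells, and the groups overlapped (0.11 ± 0.092, SE; -0.030 without knockdown replicate 1). KCNS1 (-0.10 ± 0.056, SE) and KCNF1 (0.10 ± 0.068, SE) did not overlap between groups. The difference of KCNF1 was 0.010 without control replicate 2 and 0.19 without control replicate 1, and none of the 15 silent-subunit probe sets had an unadjusted p under 0.05.

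Among channels gated by calcium or sodium, KCNMA1, KCNN1 and KCNT2 were above the level, and KCNN3, KCNN4, KCNT1 and KCNU1 were not. KCNT2, a sodium-activated channel, read 9.57 and 9.82 in control and 9.56 and 9.78 in knockdown cells. The arrays within a group lay further apart than the groups, which differed by -0.026 ± 0.10 (SE). In both groups replicate 2 was the higher, and the reason was not tested. KCNMA1, the large-conductance calcium-activated channel, read 8.07 and 7.93 in control and 7.94 and 7.99 in knockdown cells at its representative probe set (-0.037 ± 0.062, SE), and its other 3 probe sets were below the level, with 2 of opposite sign. KCNN1, a small-conductance channel, read 7.38 and 7.32 in control and 7.18 and 7.33 in knockdown cells (-0.093 ± 0.065, SE). KCNU1, a channel of sperm, lay at 6.07 and 5.93 in control cells and differed by 0.078 ± 0.062 (SE; 0.0094 without control replicate 2). None of the 16 probe sets of this group had an unadjusted p under 0.05.

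Inward rectifiers were represented by KCNJ2, KCNJ5 and KCNJ8, and the other 10 of 13 genes were not above the level. KCNJ8, the pore of an ATP-sensitive channel, read 8.67 and 8.70 in control and 8.79 and 8.69 in knockdown cells. The groups overlapped at 0.050 ± 0.057 (SE), and its second probe set differed by 0.13 ± 0.075 (SE). Of the sulfonylurea receptors that complete such channels, ABCC8 was above the level, at 6.72 on both control arrays, and ABCC9 was not. KCNJ2, the classical strong rectifier, read 8.24 and 8.13 in control and 8.18 and 8.12 in knockdown cells (-0.033 ± 0.059, SE). KCNJ5, a G protein-gated channel, had 2 of 6 probe sets above the level, both of the _x_at kind that can bind several transcripts. KCNJ6, its neuronal relative, read 6.15 and 6.08 in control and 6.30 and 6.18 in knockdown cells, below the level in both groups (0.12 ± 0.062, SE). KCNJ16, a kidney and glial rectifier, differed by 0.11 ± 0.064 (SE) from control values of 5.77 and 5.65. Of the 30 probe sets, 0 had an unadjusted p under 0.05.

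Tandem-pore channels carry background potassium current. KCNK1, a weak inward rectifier of this family, gave the only member signal above the 90th percentile of both control arrays. It read 10.68 and 10.70 in control and 10.81 and 10.71 in knockdown cells, a difference of 0.072 ± 0.057 (SE; limma, adjusted p = 0.80). A second probe set read 9.003 and 8.890 in control and 9.108 and 9.068 in knockdown cells, a difference of 0.14 ± 0.059 (SE; unadjusted p = 0.044, limma, adjusted p = 0.63). The remaining pair of KCNK1 probe sets lay near 6, below the level, and had opposite signs.

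KCNK3, an acid-sensitive background channel, had the smallest p of all members. Its representative probe set read 7.28 and 7.19 in control and 7.51 and 7.42 in knockdown cells, so the groups did not overlap. They differed by 0.24 ± 0.060 (SE; 95% confidence interval 0.096 to 0.37, unadjusted p = 0.0046; limma, adjusted p = 0.60). The other probe sets of KCNK3, which were also above the level in control cells, differed by 0.037 ± 0.056 (SE) and -0.027 ± 0.065 (SE), so only 1 of 3 showed the difference. The probe set at -0.027 lay at the edge of the level, at 6.63 and 6.57 in control cells. It was not above the level on both knockdown arrays. KCNK13, an arachidonic acid-stimulated relative, read 6.02 and 5.98 in control and 5.89 and 5.95 in knockdown cells (-0.080 ± 0.054, SE). One of 3 probe sets of KCNK10, a mechanically gated channel, read 6.11 and 6.12 in control and 6.005 and 5.959 in knockdown cells (-0.13 ± 0.052, SE; unadjusted p = 0.033, limma, adjusted p = 0.62), while its other probe sets were at 0.040 and 0.034. Of 14 genes of the family, 5 were above the olfactory receptor level, and 11 had a representative difference above 0. Such a difference was found for 42 of all 85 members and 8787 of 19775 named genes.

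Auxiliary subunits were above the level in 8 of 16 genes. KCNMB1, the smooth muscle beta subunit of the KCNMA1 channel, read 6.34 and 6.36 in control and 6.09 and 6.20 in knockdown cells, without overlap. It differed by -0.20 ± 0.058 (SE), with a 95% confidence interval of -0.33 to -0.066 (unadjusted p = 0.0088; limma, adjusted p = 0.60), and its second probe set by -0.099 ± 0.055 (SE). Neither KCNMB1 probe set was above the olfactory receptor level. KCNMB4, the neuronal beta subunit of the same channel, was above it with all 3 probe sets and read 8.25 and 8.06 in control and 8.26 and 8.08 in knockdown cells (0.020 ± 0.082, SE).

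KCNAB1, a cytoplasmic beta subunit of KCNA channels, read 8.14 and 7.95 in control and 8.03 and 7.78 in knockdown cells, overlapping at -0.14 ± 0.093 (SE). This difference was -0.27 without knockdown replicate 1 and -0.022 without knockdown replicate 2. Of its 5 probe sets 4 were below control. KCNIP4, a calcium-binding partner of KCND channels, read 6.90 and 6.74 in control and 7.06 and 6.95 in knockdown cells, without overlap, at 0.18 ± 0.070 (SE; limma, adjusted p = 0.63). Its second probe set was below the level and differed by 0.050. One of 4 probe sets of KCNIP2, a related partner, differed by 0.14 ± 0.061 (SE; limma, adjusted p = 0.63) from control values of 6.19 and 6.05, below the level.

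**Figure D2:**
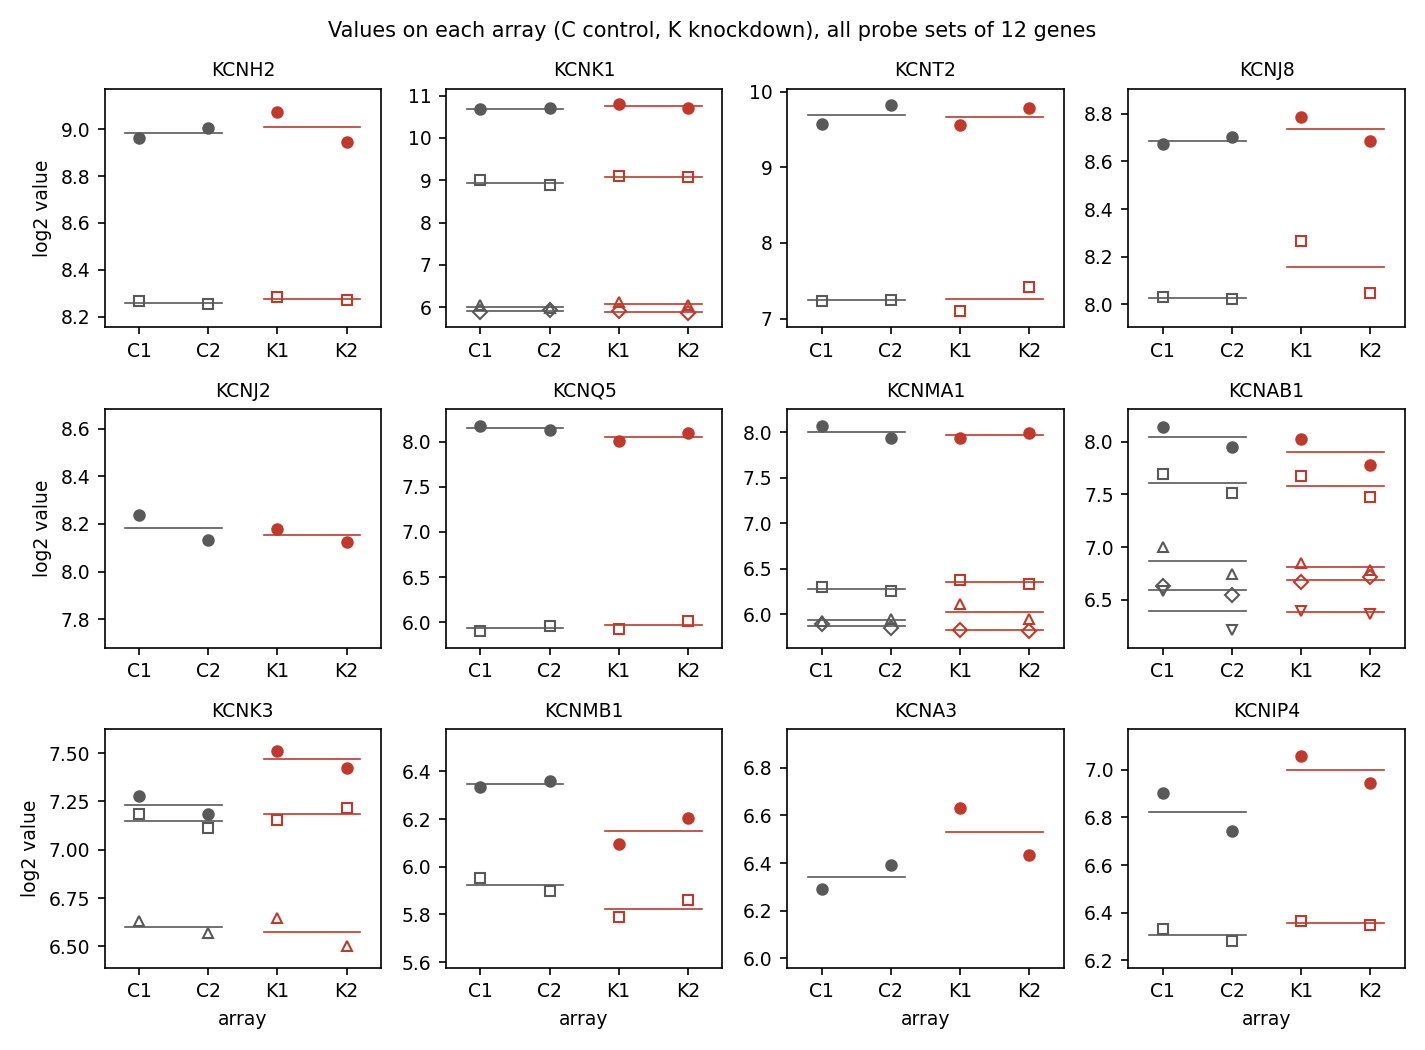
Log2 values on the 2 control (C1, C2) and 2 knockdown (K1, K2) arrays for all probe sets of 12 genes, 1 marker shape per probe set with the representative filled; bars are group means, and each panel has its own y axis, which does not start at 0. At the representative probe set, KCNH2, KCNT2 and KCNJ2 overlap between groups, and KCNK3 and KCNMB1 separate by 0.24 and -0.20.

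No potassium channel probe set passed the threshold after TSPAN8 knockdown. Of 168, 0 had an adjusted p under 0.05 (limma), where 0.00183% of all probe sets, that is TSPAN8 alone, did. At an unadjusted p under 0.05 there were 8 (4.76%), against 7.83% of all probe sets. Of these 8, 6 were higher in knockdown cells (3.57%, against 3.72% of all) and 2 were lower (1.19%, against 4.12% of all). The 8 belonged to 8 different genes, and 5 of them, those of KCNA3, KCNH5, KCNIP2, KCNK10 and KCNMB1, were not above the olfactory receptor level. At an unadjusted p under 0.01 there were 2 members (1.19%), KCNK3 and KCNMB1, against 1.64% of all.

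The groups' arrays did not overlap for 59 member probe sets (35.1%), against 37.5% of all probe sets. Knockdown arrays were both higher for 36 (21.4%, against 17.7% of all) and both lower for 23 (13.7%, against 19.8% of all). The median representative difference over the 85 genes was -0.00050, beside -0.0094 over all named genes, with 42 members above and 43 below 0. Among the 48 genes with more than 1 probe set, 32 had probe sets of both signs. Between arrays, the median absolute difference of the member probe sets was 0.066 within the knockdown group, 0.058 within the control group and 0.060 to 0.074 between knockdown and control arrays.

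**Figure D3:**
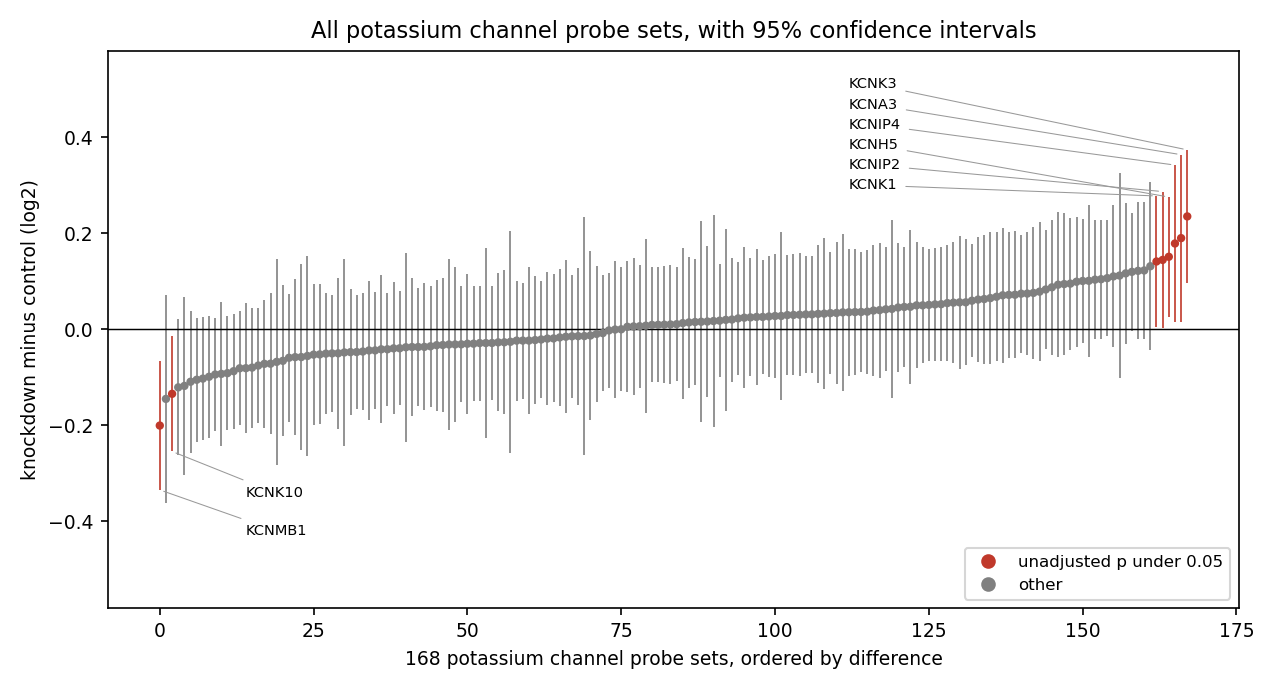
Knockdown minus control (log2) for the 168 potassium channel probe sets in order of difference, with 95% confidence intervals; red marks the 8 with an unadjusted p under 0.05. Differences run from -0.20 to 0.24, and most intervals include 0.

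The intervals bound what could have been missed at these probe sets. Member differences ran from -0.20 (KCNMB1) to 0.24 (KCNK3), and the 95% interval had a median half-width of 0.13 and a largest one of 0.25. Of all 168 intervals, the bound farthest from 0 was the upper one of KCNK3, at 0.37, and 160 intervals stayed within 0.3. These intervals are not adjusted for the number of probe sets, rest on 2 arrays per group, and understate the change of transcripts near background. A gene of the low-signal majority could therefore have changed without being seen.

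**Figure D4:**
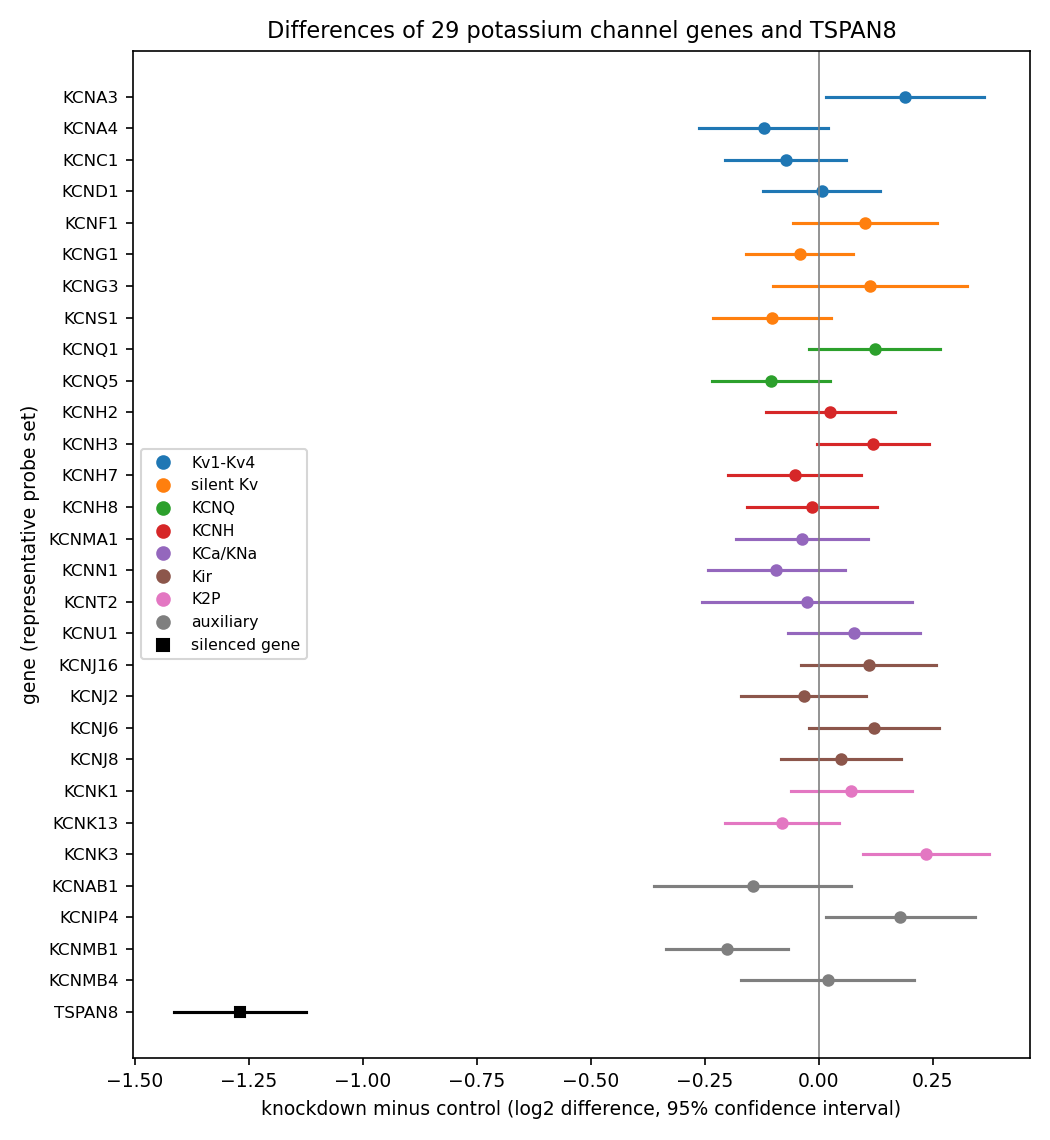
Knockdown minus control (log2) with 95% confidence intervals for the representative probe sets of 29 named potassium channel genes, coloured by role group, and for TSPAN8. The potassium channel genes run from -0.20 to 0.24, against -1.27 for TSPAN8.

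The count of calls changed with 1 array. Without knockdown replicate 2, 2 member probe sets had an adjusted p under 0.05 (limma), where 1.88% of all probe sets did: KCNA3 at 0.29 (adjusted p = 0.042) and KCNK3 at 0.28 (adjusted p = 0.047). The member share in that fit was 1.19%. The lone remaining knockdown array is there assumed to vary like the control arrays. With knockdown replicate 1, control replicate 1 or control replicate 2 left out in turn, 0 members passed, and 8, 9 and 6 had an unadjusted p under 0.05 (4.76%, 5.36% and 3.57%, against 7.93%, 5.16% and 5.3% of all probe sets).

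Partners of potassium channels that carry other symbols were listed separately. Of 33 listed partners 27 were measured and 22 were above the olfactory receptor level; 0 had an adjusted p under 0.05, and at an unadjusted p under 0.05 there were 2 higher and 2 lower (14.8% together, against 7.96% of all named genes). SGK1, a kinase that raises the surface level of several channels, read 9.435 and 9.503 in control and 9.904 and 9.655 in knockdown cells (0.31 ± 0.083, SE; limma, adjusted p = 0.60). STX1A, a release protein that binds some channels, read 7.77 and 7.76 in control and 7.56 and 7.61 in knockdown cells (-0.18 ± 0.052, SE; limma, adjusted p = 0.60). ADAM22, which anchors KCNA channels at axons, differed by -0.15 ± 0.052 (SE) at its representative probe set, while 7 of its 8 probe sets were above control. The median partner differed by -0.014.

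Subunits of the sodium-potassium pump, which builds the gradient the channels use, and SLC12 cotransporters, which carry chloride together with sodium, potassium or both, showed no call either. Of 13 listed genes 9 were measured, 6 were above the level, and 0 had an adjusted or unadjusted p under 0.05 by limma, where 7.96% of all named genes had an unadjusted one. The smallest p belonged to SLC12A4 (-0.10 ± 0.064, SE) and SLC12A7 (-0.097 ± 0.063, SE), which encode potassium-chloride cotransporters, and to SLC12A3 (-0.081 ± 0.069, SE), which encodes a sodium-chloride cotransporter. The median of the list was -0.053.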

How the data were processed

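One array per sample was used, 2 TSPAN8 knockdown and 2 control samples of SH-SY5Y cells. The deposited values are log2 values per probe set. The submitters' processing notes name RMA and R 3.0.1 and give no settings or genome build. RMA equalises the arrays' distributions and compresses changes near background. Small differences remained in the deposited values, whose array medians were 6.582 and 6.609 in knockdown and 6.584 and 6.579 in control cells. The 62 AFFX controls were left out.

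Probe sets were named through the platform annotation: 41091 had 1 gene, 1801 several (not named) and 11721 were not listed. All 168 member probe sets matched a current reference identifier with the same symbol. For each gene the probe set of highest mean over the 4 arrays served as representative.

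Groups were compared by limma 3.58.1 (lmFit and eBayes, R 4.3.3) over all 54613 probe sets, without covariates, two-sided, with Benjamini-Hochberg adjustment and a threshold of 0.05. There was 1 comparison. The call was tested on simulated data. Figures were drawn with matplotlib 3.10.9 in Python 3.11.15. The number of arrays limits the precision.

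The members and lists were chosen with earlier results of these data known. The genes named were KCNH2, the 2 highest in control signal and the 2 with the smallest p in each of 8 role groups, any with an unadjusted p under 0.01 or a difference of at least 0.3, and the 3 smallest p of each partner list. Beside a count of 5 or fewer or a group's borderline members, further names (among them KCNQ3, KCNJ5, KCNH5, KCNK10, KCNIP2, ABCC8 and DBH) were chosen after their values were seen. Alternatives concerned normalization, dim probe sets, variance model, array weights, a replicate block, multi-transcript probe sets, the summary per gene, the reference level, the threshold and each array.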

Additional observations from a re-analysis of the deposited data

How the results depend on the processing

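The count of member probe sets past the threshold was 0 in the reported fit and under every alternative except 1, and ran from 0 to 2 with 1 array left out (2 without knockdown replicate 2). The 8 at an unadjusted p under 0.05 became 2 of 50 among probe sets above the median signal (9.81% of all there) and 2 of 52 among those above the olfactory receptor level (9.68% of all there), fits that hold fewer members. They ran from 6 to 17 with 1 array left out, the 17 (10.1%) without knockdown replicate 2, where 12.4% of all probe sets had such a p. The replicate number was also fitted as a block, which nothing in the labels supports as a pairing (deviations of equal numbers correlated at 0.051). The counts were then 0 and 8, and KCNK3 was at 0.24 with an adjusted p of 0.71 (limma). These 8 (4.76%, against 6.67% of all probe sets) were not all the same probe sets. In the block fit 5 were higher and 3 lower, against 6 and 2 in the reported fit. KCNA3 left the count (unadjusted p = 0.077, limma) and KCNAB1 entered it (unadjusted p = 0.037, limma). The median member difference of -0.00050 was -0.014 after median centring and ran from -0.012 to 0.014 with 1 array left out. The 33 genes above the olfactory receptor level were 20 when all probe sets of a gene had to exceed it, and 28 and 38 at the 99th and 90th percentile of the reference.

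Of the 29 named genes, the sign turned for KCND1 (-0.0074 after median centring, -0.0079 after quantile normalization), KCNT2 (0.0080 after quantile normalization), KCNAB1 (0.10 without probe sets of the _s_at, _x_at and _a_at kinds) and KCNMA1 (0.093 without these, 0.021 as the mean of its probe sets). With 1 array left out, differences spanned both signs for KCNH2 (-0.038 to 0.089), KCND1 (-0.035 to 0.048), KCNG3 (-0.030 to 0.25), KCNH7 (-0.11 to 0.0056), KCNH8 (-0.077 to 0.048), KCNJ2 (-0.086 to 0.020), KCNMA1 (-0.10 to 0.029), KCNMB4 (-0.072 to 0.11) and KCNT2 (-0.15 to 0.10). Of the 20 that kept their sign in these fits, 16 moved by over 1.5 times in at least 1 of them, and KCNG1, KCNH3, KCNK3 and KCNMB1 did not. For these shifts the cause was not tested. For the 168 member probe sets as a whole, low signal is a limit beside the 2 arrays per group, since 29.8% of them lay above the median signal. Among the genes listed above as spanning both signs, only KCNH7 was not above the olfactory receptor level.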

Other observations

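The KCN loci also carry noncoding transcripts that the symbol rule leaves out. KCNQ1OT1, the long noncoding RNA that silences neighbouring genes of the imprinted KCNQ1 locus, is measured by 5 probe sets, of which 1 was above the olfactory receptor level. This probe set read 7.14 and 7.12 in control and 7.15 and 7.25 in knockdown cells, a difference of 0.065 ± 0.057 (SE; limma, adjusted p = 0.83). The antisense transcript KCNIP2-AS1 was above the level, at 7.005 and 6.853 in control and 6.90 and 6.93 in knockdown cells (-0.015 ± 0.064, SE). The antisense transcripts KCNMA1-AS1 (0.038), KCNQ1-AS1 (-0.075) and KCNJ2-AS1 (-0.023) were below the level, and their groups overlapped.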
